A study of Mus musculus with 8 samples.

Results

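The interferon response genes described here are Irf7, Stat2, Ifit1, Ifit3, Isg15, Bst2, Ifitm2, Ifitm3 and B2m. They were chosen with earlier results of these data known and were taken by gene symbol. All 9 were found among the 32285 genes of the deposited count table. Messenger RNA was counted in brain tissue of newborn C57BL/6 mice, in 4 control libraries and 4 ICSI-F2 libraries. ICSI, intracytoplasmic sperm injection, is a form of assisted fertilization in which a single sperm is injected into the egg. The ICSI-F2 group consisted of males sired by an ICSI-born male (F1) through natural mating, and the control group of neonates whose wild-type parents had also mated naturally. The sex of the controls, the exact age in days and whether each library came from a separate animal are not given in the labels, so p-values measure the spread between these libraries. The titles also carry a code letter whose meaning is not stated. Among the controls, replicates 1 and 2 have the letter A and replicates 3 and 4 the letter D. Among the ICSI-F2 libraries the first pair has the letter F and the second pair, replicates 3 and 4, the letter G. The question put to the 9 genes was whether their expression differed between the brains of grand-offspring of ICSI and those of controls.

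Interferons are secreted proteins that cells release on sensing viral nucleic acid. Type I interferon binds the receptor pair Ifnar1 and Ifnar2, whose kinases Jak1 and Tyk2 phosphorylate Stat2. Stat2 and Irf9 belong to a complex that binds the interferon-stimulated response element (ISRE) in the promoters of target genes. In brain, microglia, endothelium, astrocytes and neurons can all respond, and a low level of many of the target genes is present without infection.

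Among the 9 genes, Irf7 encodes the transcription factor that amplifies type I interferon production, and Stat2 the signal transducer named above. Ifit1 and Ifit3 encode proteins that act on viral RNA, Isg15 a ubiquitin-like modifier and Bst2 tetherin, which holds budding virions at the cell surface. Ifitm2 and Ifitm3 encode membrane proteins that hinder the entry of viruses. B2m encodes beta-2-microglobulin, the light chain of MHC class I molecules, which present peptides to T cells.

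Promoter sequences are shown for the 7 genes in which a core of the ISRE was found, because this is the element that the pathway's complex is known to bind. The letters searched were GAAA, any 2 bases and GAAA again, on either strand (TTTC, any 2 bases and TTTC when read on the other), in the 250 bases before each RefSeq start (build GRCm38.p6). All 9 genes had an entry, 7 held a match, and Irf7 and Ifitm3 held none in this window. Of all 32851 promoters of that length, 2.98% held one. The 3 genes B2m, Ifitm2 and Stat2 had 1 match, Bst2, Ifit1 and Ifit3 had 2, and Isg15 had 3. The matches of Bst2 overlap, and in Isg15 each match overlaps the next. Each stretch runs 5′ to 3′ on the strand of its gene with 20 bases on either side of the matches, and the capitals mark the matched letters.
B2m: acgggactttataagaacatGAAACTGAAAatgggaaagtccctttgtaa
Isg15: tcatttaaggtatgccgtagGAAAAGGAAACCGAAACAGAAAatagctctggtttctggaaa
Ifitm2: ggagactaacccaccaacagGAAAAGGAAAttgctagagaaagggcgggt
Bst2: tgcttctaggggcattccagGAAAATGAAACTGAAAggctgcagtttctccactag
Stat2: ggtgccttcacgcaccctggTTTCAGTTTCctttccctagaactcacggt
Ifit3: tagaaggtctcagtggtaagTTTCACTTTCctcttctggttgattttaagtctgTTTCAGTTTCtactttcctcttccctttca
Ifit1: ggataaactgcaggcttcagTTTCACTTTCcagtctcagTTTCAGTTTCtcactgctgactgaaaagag

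These stretches lie at chr2:122147528-122147577 (plus strand) for B2m, chr4:156200855-156200916 (minus) for Isg15, chr7:140955978-140956027 (minus) for Ifitm2 and chr8:71537567-71537622 (minus) for Bst2. Those of Stat2, Ifit3 and Ifit1 lie at chr10:128270256-128270305, chr19:34583353-34583436 and chr19:34640765-34640833, all on the plus strand. The start of Ifitm2 in GENCODE lies inside the stretch shown, because the annotations place it differently. The matches sat between bases -222 (Stat2) and -37 (Ifitm2) counted from the start of the gene. The interferon gamma activated site, TTCNNNGAA, which reads the same on both strands, was found in 1 of the 9, Bst2, at bases -136 to -128, overlapping its first ISRE match. It was present in 7.02% of all promoters. The 84 bases shown for Ifit3 are identical in its neighbour Ifit3b (chr19:34607749-34607832), and over 218 aligned bases the promoters of the pair share 188 (86.2%). A match of letters is a description and was not tested as a binding site, and the count files hold no measure of binding.

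**Figure D1:**
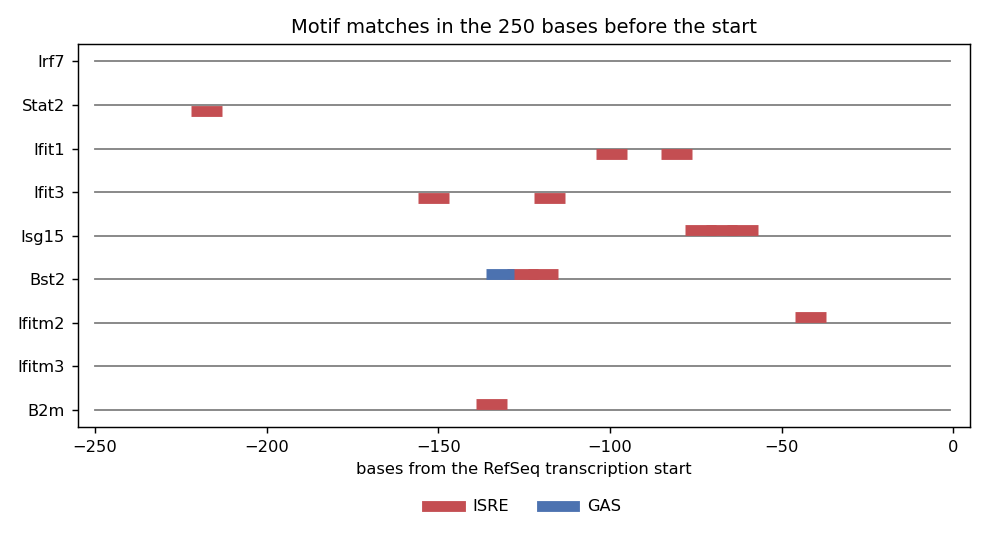
Position of each match to the ISRE and GAS letters in the 250 bases before the RefSeq start, 1 line per gene, with distance from the start in bases on the x axis. Of the 9 genes, 7 hold an ISRE match and 1, Bst2, holds a GAS match, while the lines of Irf7 and Ifitm3 are empty.

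Positions are those of the mm10 annotation (GENCODE M21). Ifitm2 (chr7:140954837-140955987), Ifitm3 (chr7:141009586-141010770) and Irf7 (chr7:141262706-141266481) lie on the minus strand of chromosome 7, with 53598 and 251935 bases between neighbours. Ifit3 (chr19:34583531-34588731) and Ifit1 (chr19:34640871-34650009) lie on the plus strand of chromosome 19 on either side of Ifit3b. B2m (chr2:122147686-122153083), Stat2 (chr10:128270559-128292849), Isg15 (chr4:156199424-156200818) and Bst2 (chr8:71534255-71537456) lie apart from the rest. Reads could not be assigned with equal certainty to all of them: of the 76-base stretches of Ifit3 exons, the read length used, 40.7% also occur in Ifit3b, against 5.11% of those of Ifit1 in Ifit1bl2 and none of those of Irf7, Isg15, Bst2, Ifitm2, Ifitm3 or B2m in another counted gene. Exons of Irf7 share 45 bases (1.19%) with those of Phrf1 on the opposite strand, a gene at 102.6 CPM, and no source used here states whether the counting was by strand.

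The 9 genes covered a wide range of levels, from near the bottom to the upper part of the tested genes. CPM is the read count scaled to a common library size (counts per 1000000) with TMM factors. Per kilobase of annotated exon, a scale that allows genes to be compared, B2m stood highest at a mean of 19.3 CPM per kb over the 8 libraries, followed by Ifitm2 at 16.2, Ifitm3 at 9.13, Stat2 at 4.89, Bst2 at 2.65 and Isg15 at 1.90. Ifit1, Irf7 and Ifit3 closed the order at 0.48, 0.43 and 0.37 CPM per kb. The range over libraries of B2m overlapped that of Ifitm2, that of Bst2 overlapped that of Isg15, and the ranges of Ifit1, Irf7 and Ifit3 overlapped each other. The other neighbours in the order did not overlap. Of the 15565 tested genes, 84.8% had a lower level per kilobase than B2m and 5.18% a lower one than Ifit3. The annotated exons of Irf7 cover its whole span of 3776 bases, retained introns included, so its level per kilobase is understated.

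**Figure D2:**
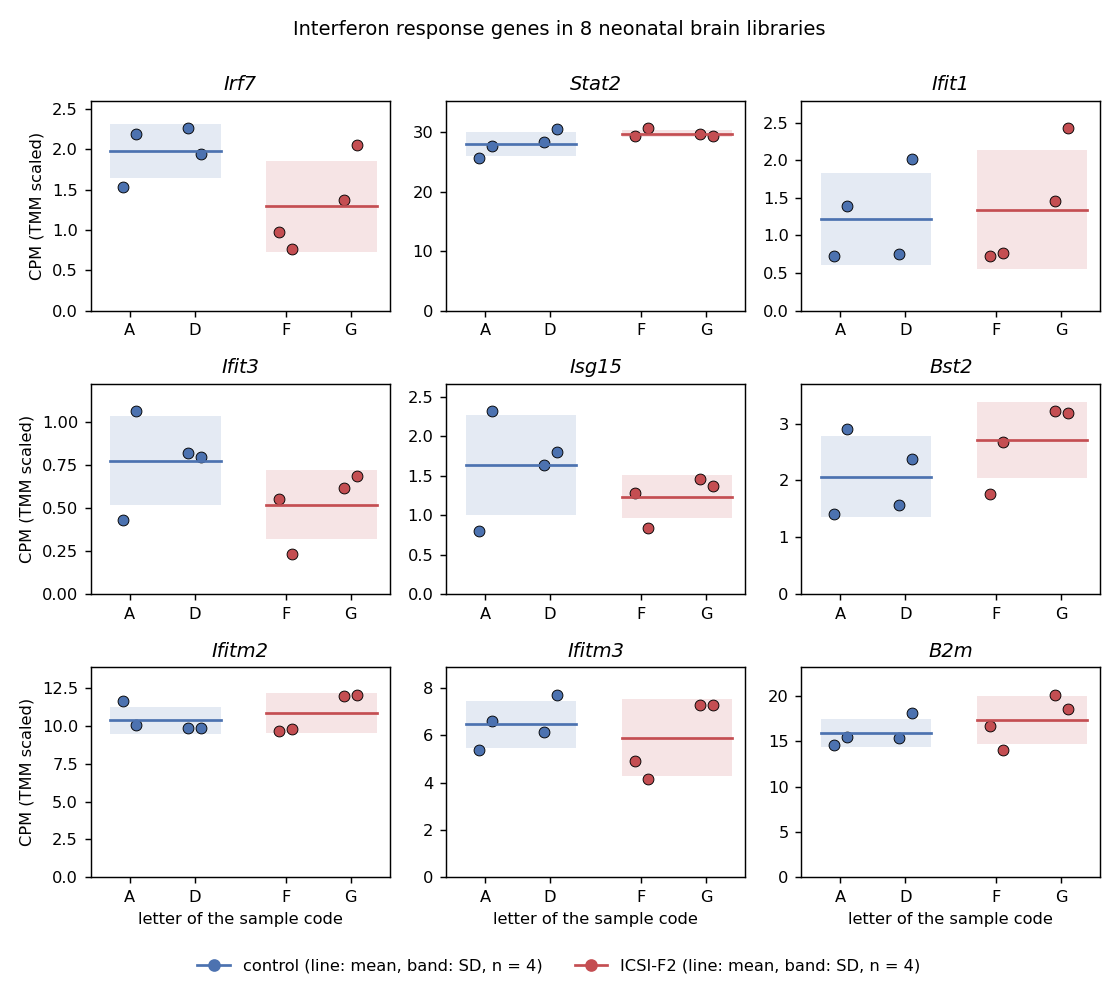
Level of each of the 9 genes in every library, as CPM, with 4 control and 4 ICSI-F2 libraries and the code letters A, D, F and G on the x axis (points are libraries, lines group means, bands 1 SD on either side). The control and ICSI-F2 libraries overlap for all 9 genes, and the G libraries lie above the F libraries for 8 of 9.

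No message was counted for the 12 interferon genes looked up. Interferon genes outside that list were not examined, and stretches shared among interferon genes were not searched for. All 12 interferon genes listed, among them Ifnb1, Ifna4, Ifng and Ifnl3, had 0 counts in every library, which allows up to 0.181 to 0.231 CPM for each gene, depending on the depth of the library. The interferon-induced chemokines were close to that limit, with Cxcl9 and Ccl5 at 0 and a summed level of at most 0.60 CPM over the 6 genes in the table. The receiving side was present at much higher levels, with Ifnar1 at 94.6 CPM, Ifnar2 at 17.2 CPM and Jak1 at 137.4 CPM on average over the 8 libraries. Of the 9 receptor and kinase genes, 8 were tested and 0 passed between ICSI-F2 and control. Their median log2 fold change was -0.01, against 0.00065 over all tested genes.

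Between ICSI-F2 and control, 0 of the 8 tested members passed the threshold, set at 0.05 for the p of edgeR's quasi-likelihood test after adjustment over all tested genes. In that comparison 1 of 15565 genes passed (0.00642%). The range of ICSI-F2 libraries overlapped that of controls for all 9 genes, and groups that do not overlap were seen for 3.97% of all tested genes. Of the 8, 5 were above control and 3 below (50.4% of all tested genes were above), with a median log2 fold change of 0.08. Only Ifit3 was under the filter on low counts. Irf7 alone had an unadjusted p below 0.05, as did 7.30% of all tested genes.

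Of the marker lists, only those of neurons and erythroid cells had sums that did not overlap between the groups. For single genes such an order was seen for 3.97% of those tested. The neuronal markers that define the tissue summed to 6660 to 6799 CPM in control and 6485 to 6554 CPM in ICSI-F2 libraries, and 0 of 10 passed. Of these 10 genes 3 were above control, and their median log2 fold change was -0.02. Erythroid markers summed to 9.27 to 13.8 CPM in control and 16.1 to 17.5 CPM in ICSI-F2 libraries, with 3 of 3 tested genes above control and 0 passed. The log2 fold change of the globin gene Hbb-bs was 0.73 (edgeR adjusted p = 0.309). The part of these cells in the levels of the 9 genes was not tested.

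Irf7, the amplifier of the response, stood at 1.53, 2.18, 2.26 and 1.95 CPM in control replicates 1 to 4. In ICSI-F2 replicates 1 to 4 it stood at 0.975, 0.766, 1.38 and 2.05 CPM. The F libraries were the lowest of the 8, while ICSI-F2 replicate 4 lay inside the control range. These levels rest on 10 to 36 counts per library. The controls averaged 1.98 ± 0.33 CPM (SD, n = 4) and the ICSI-F2 libraries 1.29 ± 0.56 CPM (SD, n = 4). On the log2 scale ICSI-F2 minus control was -0.62 (SE 0.28), with a 95% interval from -1.19 to -0.06. It did not pass the test (edgeR adjusted p = 0.650, unadjusted p = 0.0314). Without the G libraries the log2 fold change was -1.16, and it still did not pass (edgeR adjusted p = 0.794).

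Stat2, which carries the signal from the receptor to the nucleus, was the most even of the 9. Its level was 25.7, 27.8, 28.3 and 30.5 CPM in the controls and 29.4, 30.7, 29.8 and 29.4 CPM in the ICSI-F2 libraries. The controls spanned the ICSI-F2 values except for the highest. ICSI-F2 differed from control by 0.09 on the log2 scale (SE 0.07, 95% interval -0.05 to 0.22, edgeR adjusted p = 0.799), so the interval of the ratio of ICSI-F2 to control ran from 0.969 to 1.17. With 388 to 482 counts per library, the spread of Stat2 within groups was 1.05 times that expected from counting alone.

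The other STAT and IRF genes did not pass either. In that list 10 genes were tested, 6 were above control and 4 below, and the median log2 fold change was 0.04. Stat3, a transducer shared with many cytokines, had a log2 fold change of -0.12, Irf3, which switches on interferon genes after sensing, 0.14, and Irf9, the partner of Stat2, 0.13, with edgeR adjusted p = 0.724, 0.748 and 0.792.

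Ifit1, whose protein binds viral RNA lacking a host-type cap, stood at 0.733, 1.39, 0.754 and 2.02 CPM in the controls. In ICSI-F2 replicates 1 to 4 it stood at 0.731, 0.766, 1.45 and 2.43 CPM. Its counts ran from 10 to 32 per library. High and low libraries were present in both groups, and the spread within groups was 2.36 times that expected from counting, the widest of the 9 by this measure. The fitted log2 fold change was 0.14 (SE 0.40 with 95% interval -0.70 to 0.97, edgeR adjusted p = 0.970), and it was -0.68 without the G libraries.

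Ifit3, a partner of Ifit1 in binding RNA, was under the filter, with 7, 16, 13 and 11 counts in the controls and 9, 3, 8 and 9 counts in ICSI-F2 libraries. Its highest library was a control and its lowest an ICSI-F2 library, and the groups overlapped. The fit without a filter gave a log2 fold change of -0.56 (SE 0.43, edgeR adjusted p = 0.792), and in that fit 0.207% of 24101 genes passed. Among the relatives, Ifit2 was the most abundant IFIT gene at 15.3 CPM and 3.89 CPM per kb, and Ifit3b had at most 0.43 CPM in any library. Ifit1bl1 and Ifit1bl2 stood at 0.97 and 0.75 CPM.

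Isg15, whose product is attached to other proteins during the response, stood at 0.794, 2.32, 1.63 and 1.80 CPM in the controls. In the ICSI-F2 libraries it stood at 1.28, 0.843, 1.45 and 1.37 CPM. Its counts ran from 11 to 35 per library. Control replicate 1 was the lowest of the 8 and control replicate 2 the highest, so the ICSI-F2 values lay inside the control range. The fitted log2 fold change was -0.39 (SE 0.30 with 95% interval -0.996 to 0.216, edgeR adjusted p = 0.807).

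Bst2, the tether of budding virions, stood at 1.41, 2.91, 1.57 and 2.38 CPM in the controls. In the ICSI-F2 libraries it stood at 1.77, 2.68, 3.21 and 3.19 CPM. Its counts ran from 23 to 44 per library. The G libraries were above all controls, and the F libraries lay among them. The fitted log2 fold change was 0.39 (SE 0.25 with 95% interval -0.12 to 0.89, edgeR adjusted p = 0.758).

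Ifitm2, an entry inhibitor of the endosome, stood at 11.7, 10.1, 9.87 and 9.89 CPM in the controls. In the ICSI-F2 libraries it stood at 9.69, 9.81, 12.01 and 12.07 CPM. The F libraries were the lowest of the 8 and the G libraries the highest. Its log2 difference was 0.06 (SE 0.11, 95% interval -0.16 to 0.28, edgeR adjusted p = 0.933). Of its exon bases, 40.9% overlap those of Gm45717 on the same strand, a gene not analysed here. No 76-base stretch of Ifitm2 occurs in another counted gene.

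Ifitm3, its neighbour and close relative, stood at 5.38, 6.62, 6.16 and 7.72 CPM in the controls. In the ICSI-F2 libraries it stood at 4.93, 4.14, 7.27 and 7.29 CPM. Again the F libraries were the lowest of the 8, while the G libraries stayed under control replicate 4. For Ifitm3 the log2 difference was -0.13 (SE 0.16, 95% interval -0.47 to 0.20, edgeR adjusted p = 0.902). Of the other IFITM genes, Ifitm10 stood at 3.03 CPM, Ifitm1 at 1.68 and Ifitm7 at 0.65, and Ifitm5 and Ifitm6 at 0.12 and 0.08.

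B2m, which encodes the light chain of class I molecules, stood at 14.6, 15.4, 15.3 and 18.1 CPM in the controls. In the ICSI-F2 libraries it stood at 16.7, 14.0, 20.1 and 18.6 CPM. The G libraries were the highest of the 8 and ICSI-F2 replicate 2 the lowest. This gave a log2 fold change of 0.13 (SE 0.10, 95% interval -0.07 to 0.33, edgeR adjusted p = 0.801). Its heavy chain partners were led by H2-D1 at 21.4 CPM and 8.30 CPM per kb, and H2-K1, at 1.32 CPM per kb, was next. H2-T22, H2-T23, H2-Q4, H2-M3, H2-Q6 and H2-Q7 ran from 0.95 down to 0.18 CPM per kb. H2-K1 had a log2 fold change of -0.30 in ICSI-F2 (edgeR adjusted p = 0.724). Heavy chain genes share some sequence. Of the 76-base stretches of H2-Q4, H2-Q6 and H2-Q7, 19.4%, 19.2% and 12.9% occur in another counted gene, against 4.98% of those of H2-D1. The largest share with a single gene was 9.65% for H2-Q6 (in H2-Q7) and 4.21% for H2-D1 (in H2-Q1). For H2-T22, 27.8% occur in another counted gene, mostly (25.1%) in A930015D03Rik, an antisense gene on the opposite strand.

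**Figure D3:**
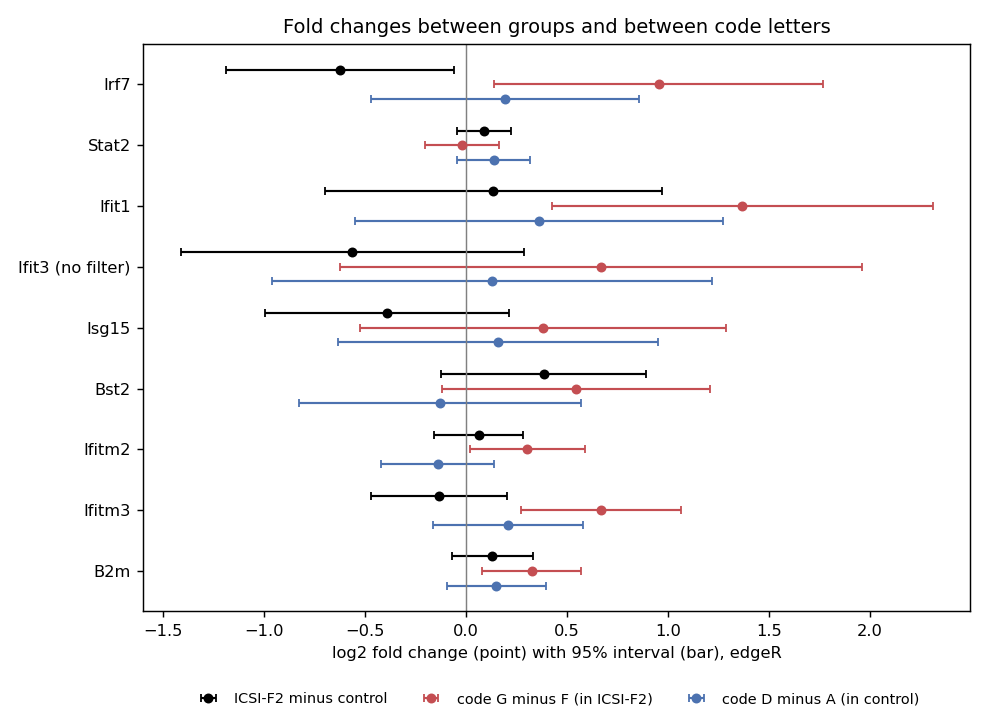
Log2 fold change of each gene with its 95% interval for ICSI-F2 minus control, G minus F and D minus A. For ICSI-F2 minus control the interval of Irf7, -1.19 to -0.06, lies below 0 and those of the other members include 0, while for G minus F those of Irf7, Ifit1, Ifitm2, Ifitm3 and B2m lie above 0. None of these passed after adjustment over all genes.

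In the wider pathway no list held a gene that passed between ICSI-F2 and control. Of the nucleic acid sensors, 14 were tested, 12 were above control and 0 passed, with a median log2 fold change of 0.17. That median was 0.03 without the G libraries and 0.08 without the A libraries. Tlr3, a sensor of double-stranded RNA, had a log2 fold change of -0.34, Unc93b1, which escorts such sensors to the endosome, 0.32, and Tmem173 (STING), the adaptor of cytosolic DNA sensing, 0.46. Of 37 tested antiviral effector genes, the members included, 21 were above control and 0 passed, with a median of 0.02. The lowest adjusted p in this list was that of Eif2ak2, the RNA-activated kinase PKR, with a log2 fold change of -0.32 (edgeR adjusted p = 0.542), followed by Herc6, the mouse ligase that attaches Isg15, at -0.49 (0.607). Trim21, an antibody receptor inside cells, had a log2 fold change of 0.49 (0.710).

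Of the 10 tested GTPases induced by interferon gamma, 4 were above control and 0 passed (median -0.01), with Gbp3 at -0.53, Gbp9 at 0.29 and Igtp at -0.29. In MHC class I presentation 19 genes were tested, 7 were above control and 0 passed (median -0.01), with Tapbpl, a peptide editor, at 0.25 and Psme2, a proteasome activator, at 0.11. Of 11 feedback inhibitors 5 were above control and 0 passed (median -0.0044), with Socs3, an inhibitor of JAK kinases, at -0.13, Cyld, a deubiquitinase, at -0.04 and Samhd1, which degrades nucleotides, at -0.06. The receptor and kinase genes of smallest p were Ifngr2 at -0.08, Jak2 at 0.05 and Il10rb at 0.19. Mx1, Mx2, Oas1b and Cxcl11 were not analysed here.

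**Figure D4:**
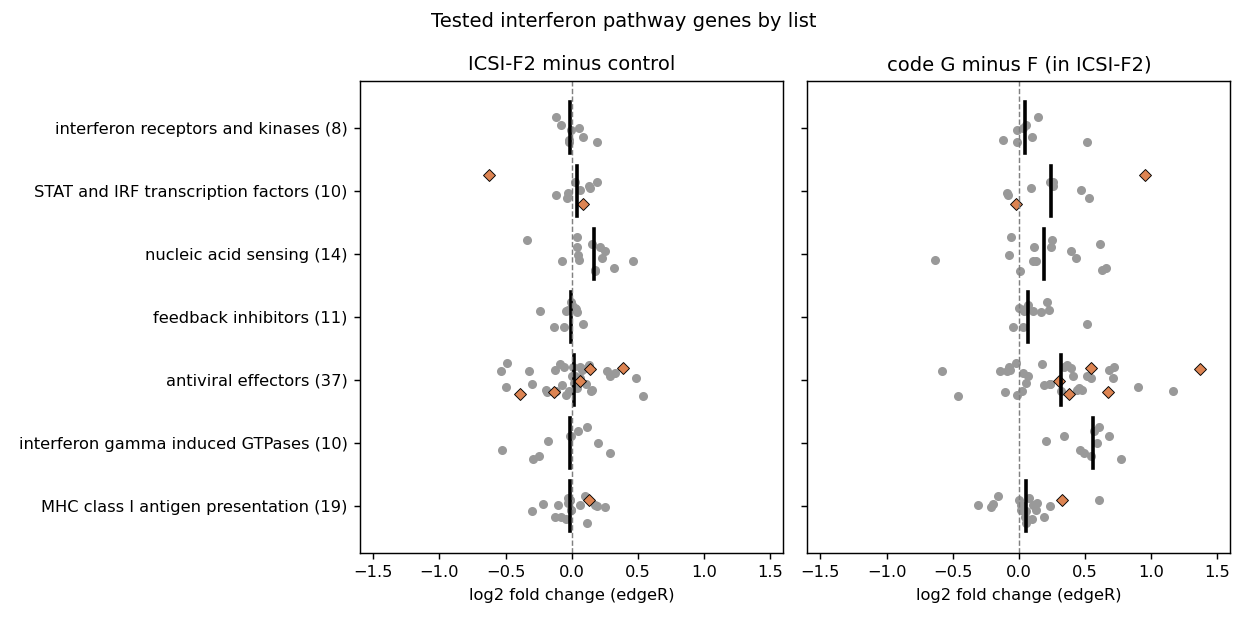
Log2 fold changes of the tested genes of each pathway list, 1 point per gene, for ICSI-F2 minus control and for G minus F, with the median of each list marked. The medians for ICSI-F2 minus control lie between -0.01 and 0.17, and for G minus F that of the GTPases reaches 0.56.

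Within the ICSI-F2 group the levels of most members were ordered by code letter, and none passed the test between the letters. Both G libraries were above both F libraries for 8 of the 9 genes, all but Stat2, an order found for 17.8% of all tested genes. Of the 8 tested members 7 had a higher level in G (49.6% of all genes), with a median log2 fold change of 0.46 against -0.00091 over all genes, and 5, all higher in G, had an unadjusted p below 0.05 (6.86% of all genes, 3.69% counting the higher ones). After adjustment 0 of the 8 passed, while 41 genes of the 15565 (0.263%) did. The 9 genes were chosen with earlier results of these data known, so the shares over all genes are given as a description only. Ifitm3 had the lowest adjusted p of the 8, with a log2 fold change of 0.67 (SE 0.19, edgeR adjusted p = 0.230). Ifit1 had the largest difference, 1.37 (SE 0.46, edgeR adjusted p = 0.422), on 12 and 10 counts in the F libraries and 19 and 32 in the G libraries. Irf7 followed at 0.95 (SE 0.40, edgeR adjusted p = 0.635). The differences of Bst2, B2m and Ifitm2 were 0.55, 0.33 and 0.31, and that of Stat2 was -0.02 (95% interval -0.20 to 0.16). The 2 F libraries were the lowest of all 8 for 3 of the 9, Irf7, Ifitm2 and Ifitm3, an order that was noticed in the values and that 3.96% of tested genes share.

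The same contrast in the pathway lists gave 28 of 37 antiviral effectors above 0 (median 0.32), the members included, and 0 passed. Without the members 23 of 32 were above 0, with a median of 0.24 (49.6% of all tested genes were above 0). Rsad2 (viperin), with 10 to 31 counts per library, was at 1.17 and Lgals9 at 0.72 (edgeR adjusted p = 0.397 and 0.194). Of the 37 genes 9 were below 0, among them Xaf1 at -0.58. Rsad2, Lgals9 and Xaf1 were chosen after their values were seen. All 10 tested GTPases were above 0 (median 0.56) and 0 passed. Of the 19 class I presentation genes, B2m included, 15 were above 0 (14 of 18 without it) and 1 passed. That gene was Calr, which encodes calreticulin, a chaperone of the endoplasmic reticulum that serves many glycoproteins besides class I chains. Calr was higher in G than in F by 0.19 on the log2 scale (edgeR adjusted p = 0.0407), and leaving out any 1 ICSI-F2 library, control replicate 3 or control replicate 4 ended that call, with adjusted p from 0.0544 to 0.589.

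Markers of some other cell types were higher in the G libraries than in the F libraries, and those of others were not. Border macrophage markers, 7 genes such as Mrc1 and Pf4, summed to 85.4 and 90.3 CPM in the G libraries, to 62.9 and 63.0 CPM in the F libraries and to 46.1 to 65.5 CPM in the controls. All 5 tested markers were higher in G and 1, Mrc1, passed (log2 fold change 0.58, edgeR adjusted p = 0.0107). The 11 meningeal fibroblast markers summed to 947 and 968 CPM in G against 705 to 761 CPM in the other 6 libraries, with 11 of 11 above 0 and 5 past the threshold, namely Col1a1, Col1a2, Col3a1, Slc6a13 and Igf2. Of 8 astrocyte markers 7 were above 0 and 1, Gja1, passed (log2 fold change 0.46), although the list summed to 820 and 845 CPM in G and 712 to 977 CPM elsewhere. Of 9 pericyte and smooth muscle markers 3 were above 0 and 1, Vtn, passed (0.45, edgeR adjusted p = 0.0262), and of 10 neuronal markers 7 were above 0 and 1, Slc17a7, passed (0.46, edgeR adjusted p = 0.0107). Microglial markers, 16 genes, summed to 117 and 124 CPM in G and 103 to 110 CPM elsewhere, and 0 of 16 passed. Those of endothelium summed to 321 and 343 CPM in G and 300 to 337 CPM elsewhere. Choroid plexus and ependyma markers summed to 358 and 379 CPM in G and 328 to 507 CPM elsewhere, with 2 of 7 above 0 and 0 passed. Hepatocyte markers summed to 20.8 and 40.9 CPM in G and at most 1.07 CPM in the other 6. Markers of other leukocytes summed to at most 4.09 CPM in any library. The highest sum was that of control replicate 1, where the myeloid genes S100a8, S100a9 and Mpo stood at 1.34, 1.28 and 1.10 CPM, and the neutrophil gene Ly6g was at 0 in all 8. The part of these cells in the levels of the interferon response genes was not tested, and in bulk tissue fewer cells of a type and less RNA per cell cannot be told apart.

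**Figure D5:**
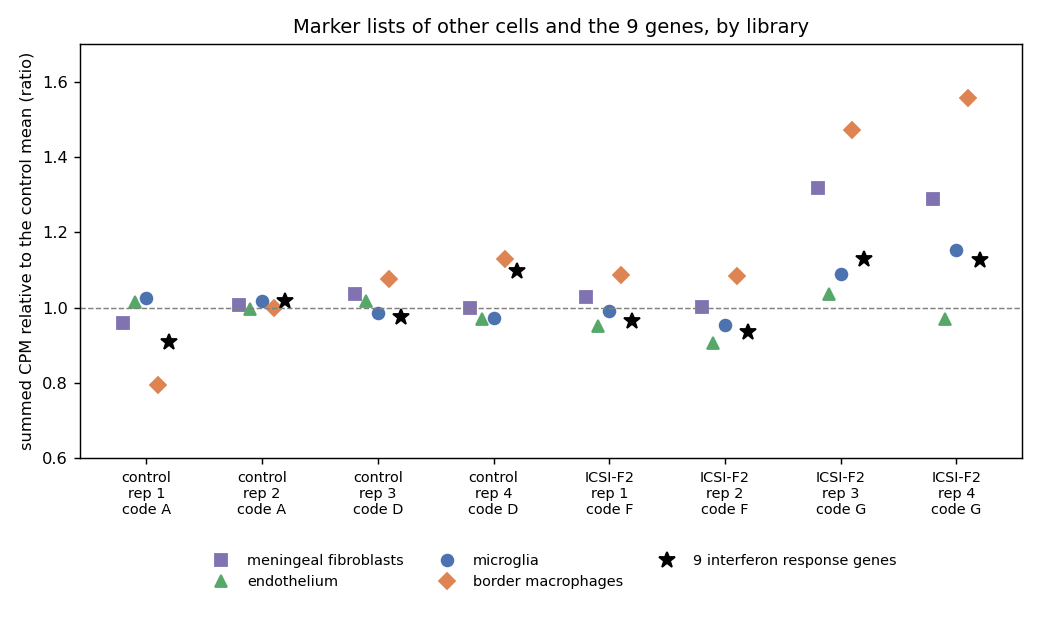
Summed CPM of 4 marker lists and of the 9 interferon response genes in each library, divided by the mean of the 4 control libraries. The G libraries reach 1.47 and 1.56 for border macrophages and 1.32 and 1.29 for meningeal fibroblasts, and 1.13 and 1.13 for the 9 genes, against 0.908 to 1.10 for the 9 genes in the other 6 libraries. Stat2 and B2m weigh most in the sum of the 9 genes, at means of 29.0 and 16.6 CPM.

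Within the control group, 0 of the 8 tested members passed between D and A, where 149 genes (0.957%) did, with adjusted p from 0.602 to 0.942 in edgeR. Of the 8, 6 had a higher level in D (50.3% of all genes), and 0 had an unadjusted p below 0.05 (11.1% of all genes). Of the 9 genes, 1 (Stat2) had both D libraries above both A libraries and 1 (Ifitm2) had both below, orders found for 20.3% and 20.5% of all tested genes. Control replicates 1 and 2, the A libraries, held posterior Hox transcripts at a summed 46.1 and 14.7 CPM, against at most 0.38 CPM in the other 6, with Hoxc8 at 0 in all. Calr was lower in D than in A by a log2 fold change of -0.20 (edgeR adjusted p = 0.00923), and without control replicate 1, 3 or 4 it no longer passed (adjusted p 0.380, 0.138 and 0.0721). Astrocyte markers were lower in D for 8 of 8, with 2 past the threshold, Aqp4 at -0.74 and Agt at -0.67 (edgeR adjusted p = 3.2e-05 and 0.0363), and of the neuronal markers 1, Slc17a6, passed at -0.21. Border macrophage markers were higher in D for 5 of 5 tested genes and summed to 62.5 and 65.5 CPM in D against 46.1 and 57.9 CPM in A. Meningeal fibroblast markers were higher in D for 9 of 11, and 0 passed in either list. The part of these cells in the D and A levels of the 9 genes was not tested.

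The tested genes whose profile over the 8 libraries was most like each member, by root mean square distance between log2 CPM values scaled to mean 0 and SD 1, were mostly genes outside the pathway lists. For Irf7 they were Pip4k2a (distance 0.140), Hus1 (0.241) and Samd9l (0.333), and for Isg15 they were Eif3i (0.234), Tap1 (0.310) and Pdcd2 (0.327). Tap1, a subunit of the transporter that carries peptides to class I molecules, was thus the one gene of the pathway lists among them. Those of Ifit1 were Klhl9 (0.178), Acad10 (0.321) and Fpgt (0.397), those of Stat2 Papolg (0.178), Ing3 (0.179) and Ccdc80 (0.210), and those of Bst2 Akr7a5 (0.191), Tfr2 (0.264) and Bace2 (0.269). Ifitm2 had Spns2 (0.205), Tmc8 (0.246) and Atp6v0b (0.248), and Ifitm3 had Traf5 (0.185), Lamc1 (0.288) and Kcnq1 (0.336). Nearest to B2m were Zfp597 (0.189), Tgm2 (0.281) and Clec2d (0.300). Each was taken from 15564 other genes over 8 libraries, and the distances are a description.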

How the data were processed

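RNA-seq of whole neonatal brain was analysed in 8 libraries. The authors deposited whole-number counts of reads for each gene, with no normalization. Per the submitters' processing notes the tools were bcl2fastq 2.20, cutadapt 3.4, HISAT2 2.2.1 and HTSeq 2.0.2 on mm10. No source used here gives the annotation release or the strand setting. Per the labels, single reads of 76 bases came from stranded mRNA libraries.

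Library totals ran from 12968175 to 16551511 counts, with 20038 to 20490 genes counted in each and TMM factors of 0.989 to 1.01. The main test was edgeR 4.0.16 (R 4.3.3) quasi-likelihood (robust), with the 2 groups and no covariate, filterByExpr (15565 of 24101 genes with a count) and Benjamini-Hochberg adjustment over all tested genes. A fit with the 4 code letters as groups gave the letter contrasts. DESeq2 1.42.0, limma 3.58.1 voom and the other settings are in the closing section. Tests were checked on simulated counts. Floors of 3 counts per library and intervals of 95% cover counting error or library spread only. Of the gene identifiers, 99.6% were found in GENCODE M21, which gave positions and exon lengths.

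The 9 genes and all lists were chosen with earlier results of these data known. Named besides the members are the 3 list genes of smallest p in each pathway list, pathway list genes past the threshold in any contrast, the IFIT, IFITM and class I heavy chain families, and the 3 nearest profiles per tested member. Marker genes are named beside the results they bear on, and Ifnar1, Ifnar2, Jak1 and the ligands are given as levels for their role. Rsad2, Lgals9 and Xaf1 were chosen after their values were seen. Replicate numbers follow deposition order and pair no samples.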

Additional observations from a re-analysis of the deposited data

Results flagged for a closer look

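In 6 of 86 groups of 4 libraries checked, the highest or lowest library stood far from the other 3 (Dixon's test at 95%). Chance gives about 1 in 20 such groups. Among the members this was Ifitm2, at 11.7 CPM in control replicate 1. Among other pathway genes the lowest ICSI-F2 library of Eif2ak2 was at 6.20 CPM, the lowest control library of Gbp3 at 1.47 CPM and the highest control library of Igtp at 1.95 CPM. Of the marker lists, the summed level of pericytes and smooth muscle had an ICSI-F2 library at 201.2 CPM, the lowest, and that of choroid plexus and ependyma an ICSI-F2 library at 507.3 CPM, the highest.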

How the results depend on the processing

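Between ICSI-F2 and control 0 members passed in any setting run. For the pathway lists 0 genes passed with the main settings, the library total alone, no filter, each library left out and the A or G libraries left out, which are the settings run for them. Of 392 member values under alternatives 378 kept their direction and side of the threshold and 14 changed sign. The number of genes past the threshold over the whole table depended on the setting more. It was 1 for ICSI-F2 against control, and 4 with DESeq2, 2 with limma voom, 50 with no filter, 6 without the A libraries, 23 with code letters as groups, 2 with limma voom and the letter as a random block (correlation 0.0278), and 1 to 9 with each library left out. For G against F it was 41, and 23 with DESeq2, 97 with no filter and 13 to 64 with each library left out. For D against A it was 149, and 69 with DESeq2, 365 with no filter and 19 to 237 with each library left out. The cause was not tested.

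Values that changed sign were those of Ifit1 between ICSI-F2 and control, at -0.039 without the A libraries, -0.68 without the G libraries and -0.31 to 0.47 with each library left out. Without the G libraries Ifitm2 was at -0.090, B2m at -0.035, Il10rb at -0.084 and Unc93b1 at -0.035. With each library left out, D minus A ranged from -0.048 to 0.47 for Irf7, -0.48 to 0.94 for Ifit1, -0.43 to 1.10 for Isg15 and -0.57 to 0.47 for Bst2, and G minus F from -0.054 to 0.011 for Stat2. Calr between G and F lost its call with DESeq2, limma voom and upper quartile factors (adjusted p 0.0695, 0.0565 and 0.0537). The adjusted p of Irf7 between the groups ranged from 0.353 to 0.9999 over the settings. No paired analysis was possible because the replicate numbers follow the order of deposition and the groups compared share no label that pairs libraries. At 10 to 36 counts per library for Irf7, depth limits what could be seen: counting alone gives a spread of 20.4%, against 28.3% within groups.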
